A study of Mus musculus with 27 samples.

Results

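The genes described here are 10 members of the Notch signalling pathway: the receptors Notch1, Notch2, Notch3 and Notch4, the ligands Dll1, Dll3 and Jag1, and the target genes Hes1, Hes5 and Hey1. They were taken by symbol from the 23608 entries of an FPKM table over 19 bulk RNA-seq libraries (FPKM, fragments scaled by transcript length and by the mapped fragments of the library), and all 10 were found. Their promoters were then looked up in maps of H3K4me3, H3K27me3 and DNA methylation, and their counts in single cells. The study derived mouse formative pluripotent stem cells (fPSCs), a state between naïve embryonic stem cells and primed epiblast stem cells, and compared them with their neighbours along that path. All libraries are labelled wild type (WT). Naïve mESCs (2 libraries) were grown without feeders in N2B27 medium with PD035901, Chir99021 and hLIF (2i/LIF). EpiLCs (2 libraries) were grown in N2B27 with KSR, Activin A and bFgf2, and Epiblastoids (1 library each on days 2, 3 and 4) in the same additives embedded in Matrigel. EpiSCs (2 libraries) were kept on Mitomycin C-inactivated mouse embryonic fibroblasts with KSR, Activin A, bFGF2 and the tankyrase inhibitor XAV939, which blocks Wnt/β-catenin signalling. fPSCs were also embedded in Matrigel, in N2B27 with Activin A, bFgf2 and XAV939. They comprised 1 library at passage 1 (P1), 7 later libraries, and 2 libraries of P10 fPSCs derived from E5.5 and E6.5 epiblasts. Of the 7 later libraries, P10, P20 and P30 followed a total RNA-seq protocol like the other groups. The 4 libraries named CMT P11, 46C P24, BVSC P14 and ROSAmTmG P12, after the line of origin, were prepared with a NEBNext Ultra kit. The study gives CMT as the line of P1, P10, P20 and P30 as well, and CMT P11 as cryopreserved. It describes 46C as a Sox1-GFP reporter line and BVSC as a Blimp1-Stella reporter line, and the ROSAmTmG line came from ROSAmT/mG mice. No label says that the replicates of a group came from separate cultures, so p-values measure the spread between these libraries, which may be technical.

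Notch signalling passes between touching cells. A ligand of the Delta-like or Jagged family on one cell binds a Notch receptor on its neighbour, the receptor is cleaved, and its intracellular domain enters the nucleus, where it joins the DNA-binding protein RBPJ and Mastermind-like co-activators. Hes and Hey genes are the best known direct targets and encode basic helix-loop-helix repressors. In the mouse embryo the pathway is known for the segmentation of presomitic mesoderm, where Dll1, Dll3, Hes1, Hes5 and the receptor Notch1 take part, and for holding back neural differentiation. Dll3 differs from the other Delta-like ligands in that it stays largely inside the cell and does not activate receptors on neighbours.

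Depth is not stated for the FPKM table. The steps between low FPKM values placed the libraries between 0.875 and 1.61 times the depth of fPSCs P20, with the 4 kit libraries at 1.49 to 1.61 times. All 4 pluripotency markers examined (Pou5f1, Sox2, Utf1, Nanog) reached 1 FPKM in each of the 19 libraries. The summed level of 3 naïve markers (Zfp42, Klf4, Esrrb) was 581 and 694 FPKM in mESCs and at most 13.0 FPKM elsewhere. The summed fibroblast markers were high in the EpiSC libraries, which grew on fibroblasts: the sum of 8 markers was 204 and 276 FPKM, with 6 of 8 at 1 FPKM or more, against at most 11.2 FPKM in any other library. Most of it was Col1a1 and Col1a2 (EpiSC means 132 and 87.1 FPKM). Of the 8, Dcn was higher in EpiLCs (mean 5.29 FPKM) than in EpiSCs (2.35 FPKM). Thy1 had a mean of 4.32 FPKM in EpiSCs and reached 7.64 FPKM in fPSCs. Fewer cells of a type and less RNA per cell cannot be told apart in bulk libraries.

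The promoters of the 3 target genes and of Notch1 carry the sequence features and the chromatin differences described further on, and are shown first. Each stretch runs from 250 bases before to 50 bases after a transcript start in NCBIM37 (mm9), on the strand of the gene. Capitals mark TGGGAA or its reverse complement TTCCCA, the core of the RBPJ binding motif, searched on both strands. The Hes1 promoter lies at chr16:30065176-30065475 (plus strand), that of Hes5 at chr4:154334782-154335081 (plus strand) and that of Hey1 at chr3:8666990-8667289 (minus strand).
Hes1: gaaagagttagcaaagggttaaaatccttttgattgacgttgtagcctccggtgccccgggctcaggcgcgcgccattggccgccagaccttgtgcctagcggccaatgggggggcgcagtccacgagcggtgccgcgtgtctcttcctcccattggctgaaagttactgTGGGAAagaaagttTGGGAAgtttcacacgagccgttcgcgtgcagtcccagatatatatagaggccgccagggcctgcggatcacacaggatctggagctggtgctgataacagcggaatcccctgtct
Hes5: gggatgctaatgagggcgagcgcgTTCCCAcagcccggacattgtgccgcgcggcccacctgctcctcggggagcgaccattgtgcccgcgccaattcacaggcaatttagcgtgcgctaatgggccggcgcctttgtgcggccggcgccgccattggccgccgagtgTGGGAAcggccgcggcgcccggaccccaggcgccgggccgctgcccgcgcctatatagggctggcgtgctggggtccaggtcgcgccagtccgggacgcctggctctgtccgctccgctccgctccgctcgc
Hey1: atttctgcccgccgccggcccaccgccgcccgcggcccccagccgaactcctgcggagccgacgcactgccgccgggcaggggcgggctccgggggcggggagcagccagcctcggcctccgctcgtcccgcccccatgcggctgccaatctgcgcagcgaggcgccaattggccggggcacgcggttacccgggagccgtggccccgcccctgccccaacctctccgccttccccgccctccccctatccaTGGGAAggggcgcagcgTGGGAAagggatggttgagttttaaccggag
Notch1 is annotated with alternative starts 12841 bp apart, and both are shown because they differed in chromatin. The outermost start lies in chr2:26372134-26372433 and the start with the most H3K4me3 in chr2:26359293-26359592, both on the minus strand.
Notch1 outermost start: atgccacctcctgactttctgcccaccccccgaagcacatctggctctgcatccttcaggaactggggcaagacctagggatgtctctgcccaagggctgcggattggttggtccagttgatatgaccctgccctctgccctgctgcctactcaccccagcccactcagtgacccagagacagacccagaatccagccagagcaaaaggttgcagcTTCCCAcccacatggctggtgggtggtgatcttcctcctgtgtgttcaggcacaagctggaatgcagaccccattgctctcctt
Notch1 inner start: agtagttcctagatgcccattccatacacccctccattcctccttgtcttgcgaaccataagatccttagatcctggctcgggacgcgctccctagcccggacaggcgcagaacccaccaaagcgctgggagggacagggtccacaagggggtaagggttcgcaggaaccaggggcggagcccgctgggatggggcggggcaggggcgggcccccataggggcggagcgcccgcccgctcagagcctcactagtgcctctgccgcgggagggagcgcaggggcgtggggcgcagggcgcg
Hes1, Hes5 and Hey1 each held 2 copies of the motif within these 300 bases. In Hes1 they started 80 and 66 bases before the transcript start, in Hes5 226 and 82 bases before it, and in Hey1 2 and 19 bases after it. At the outermost starts 5 of the 10 members held at least 1 copy (Notch1, Notch3, Hes1, Hes5 and Hey1), against 24.3% of 22080 promoters of the same length. A second motif, the N box CACNAG on either strand, was in 5 of 10 (Notch1, Notch2, Notch3, Dll3 and Hes1), against 41.7% of promoters. A match describes the letters and is no evidence of binding. The outermost Notch1 start had 1 copy of TGGGAA (as TTCCCA) and 2 CpG dinucleotides in its window, and the inner start had no copy and 23 CpG dinucleotides.

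Between naïve mESCs, EpiLCs and EpiSCs, receptors and ligands did not move as a block. Notch1, Notch4 and Hes1 were lower in EpiLCs than in mESCs, whereas Notch2, Dll1 and Dll3 were higher. EpiSCs shared the higher Notch2, Dll1 and Dll3 and had a higher Notch3. Groups were compared with limma on log2(FPKM + 1), and a gene was called at a Benjamini-Hochberg adjusted p under 0.05 over all genes tested and a fold change of at least 1.5. Hes5 did not reach 1 FPKM in any library and was not tested, which left 9 members. In EpiLCs against mESCs 6 of 9 were called, in a comparison where 29.6% of all 12513 genes tested were called. EpiSCs against mESCs gave 5 of 9 (47.8% of all genes), and EpiSCs against EpiLCs gave 4 of 9 (35.9%). The median log2 difference over the 9 members was -0.44, 0.37 and 0.81 in these comparisons, and that over all genes tested was -0.06, -0.09 and -0.03.

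Of the receptors, Notch1 was at 8.17 and 5.89 FPKM in mESCs, 2.55 and 1.72 FPKM in EpiLCs and 5.75 and 6.0 FPKM in EpiSCs. The EpiLC libraries were below all others of these groups, while mESCs and EpiSCs overlapped. Notch1 fell by 1.35 ± 0.22 (SE) on the log2 scale from mESCs to EpiLCs (limma adjusted p = 0.000472) and was higher by 1.15 ± 0.22 in EpiSCs than in EpiLCs (limma adjusted p = 0.00152). Notch4, a receptor best known from blood vessels, showed the same order at a lower level, with 3.76 and 1.76 FPKM in mESCs, 0.187 and 0.347 FPKM in EpiLCs and 1.16 and 1.91 FPKM in EpiSCs. It fell by 1.52 ± 0.28 from mESCs to EpiLCs (limma adjusted p = 0.00117). Its difference between EpiSCs and EpiLCs was 0.99 ± 0.28 (limma adjusted p = 0.0151), and that call was lost without EpiLC replicate 1 or EpiSC replicate 2. Of the 7 endothelial markers, Pecam1 and Tek reached 1 FPKM in mESCs and EpiLCs, and Cdh5 and Flt1 in EpiSCs. The sum of the 7 was 25.5 and 30.4 FPKM in mESCs and between 3.76 and 4.62 FPKM in EpiLCs and EpiSCs; the part of other cells in the Notch4 level was not tested.

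Notch2 and Notch3 ran the other way. Notch2 was at 2.82 and 1.26 FPKM in mESCs, 8.47 and 4.82 FPKM in EpiLCs and 13.5 and 11.5 FPKM in EpiSCs, so that the groups followed each other without overlap. It rose by 1.34 ± 0.44 from mESCs to EpiLCs (limma adjusted p = 0.0352), a call lost without mESC replicate 2, without EpiLC replicate 1 and without the filter on low values. The EpiSC level exceeded that of mESCs by 2.2 ± 0.44 (limma adjusted p = 0.00127). Notch3 was at 9.09 and 5.04 FPKM in mESCs, 25.4 and 11.4 FPKM in EpiLCs and 25.7 and 32.6 FPKM in EpiSCs. The EpiLC libraries lay far apart, and their difference from mESCs was 1.21 ± 0.64 (limma adjusted p = 0.174). From mESCs to EpiSCs Notch3 rose by 1.94 ± 0.64 (limma adjusted p = 0.0232), and this call was lost without either EpiSC replicate or without mESC replicate 2. The EpiSC libraries with the highest Notch2 are those with the fibroblast markers given above, and the part of fibroblast RNA in these 2 receptors was not tested.

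Among the ligands, Dll1, a Delta-like activator of Notch receptors, had the largest difference between mESCs and EpiLCs. It was at 0.0542 and 0.00318 FPKM in mESCs, at 6.53 and 4.86 FPKM in EpiLCs and at 2.03 and 1.99 FPKM in EpiSCs, with no overlap between the groups. Dll1 rose by 2.69 ± 0.20 from mESCs to EpiLCs (limma adjusted p = 4.84e-07), was higher by 1.55 ± 0.20 in EpiSCs than in mESCs (limma adjusted p = 3.53e-05) and lower in EpiSCs than in EpiLCs, with a log2 difference of -1.14 ± 0.20 (limma adjusted p = 0.000716). All 3 calls held under each of the 10 alternatives tried per comparison. These values understate the change, because the log2 scale carries a pseudocount of 1.

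Dll3 was at 1.09 and 0.454 FPKM in mESCs, 4.65 and 4.70 FPKM in EpiLCs and 5.84 and 5.90 FPKM in EpiSCs. mESCs were lowest, and the EpiLC and EpiSC libraries lay close together. Dll3 rose by 1.70 ± 0.33 to EpiLCs (limma adjusted p = 0.00188) and by 1.98 ± 0.33 to EpiSCs (limma adjusted p = 0.00036). Jag1, a ligand of the Jagged family, was at 5.38 and 4.16 FPKM in mESCs, 2.55 and 1.39 FPKM in EpiLCs and 4.17 and 3.63 FPKM in EpiSCs. EpiLCs had the lowest values, but no comparison of Jag1 was called; the difference of EpiLCs from mESCs was -0.98 ± 0.40 (limma adjusted p = 0.0811).

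Among the targets, Hes1 had the highest FPKM in each of the 19 libraries, with 34.0 and 39.8 FPKM in mESCs, 6.46 and 4.61 FPKM in EpiLCs and 14.3 and 18.3 FPKM in EpiSCs. The 3 groups did not overlap. Hes1 fell by 2.55 ± 0.38 from mESCs to EpiLCs (limma adjusted p = 0.000223), a call that held under all 10 alternatives. It was lower in EpiSCs than in mESCs by a log2 difference of -1.14 ± 0.38 (limma adjusted p = 0.0248), and this call was lost when any 1 of the 4 libraries was left out. The higher level in EpiSCs than in EpiLCs, by 1.41 ± 0.38 (limma adjusted p = 0.0113), was lost without EpiLC replicate 2 or EpiSC replicate 2. Hey1 was at 2.06 and 1.24 FPKM in mESCs, 0.784 and 1.08 FPKM in EpiLCs and 2.53 and 2.24 FPKM in EpiSCs, and none of its 3 comparisons was called. Hes5, a target prominent in neural progenitors, was at 0.583 FPKM or less in all 19 libraries and was listed at 0 in EpiLC replicate 1 and in fPSCs P10. The 5 early neural markers summed to at most 1.66 FPKM outside the EpiSC libraries, where they summed to 21.1 and 14.1 FPKM. Of the 5, only 2 reached 1 FPKM in EpiSC replicate 1 and only 1 in replicate 2.

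**Figure D1:**
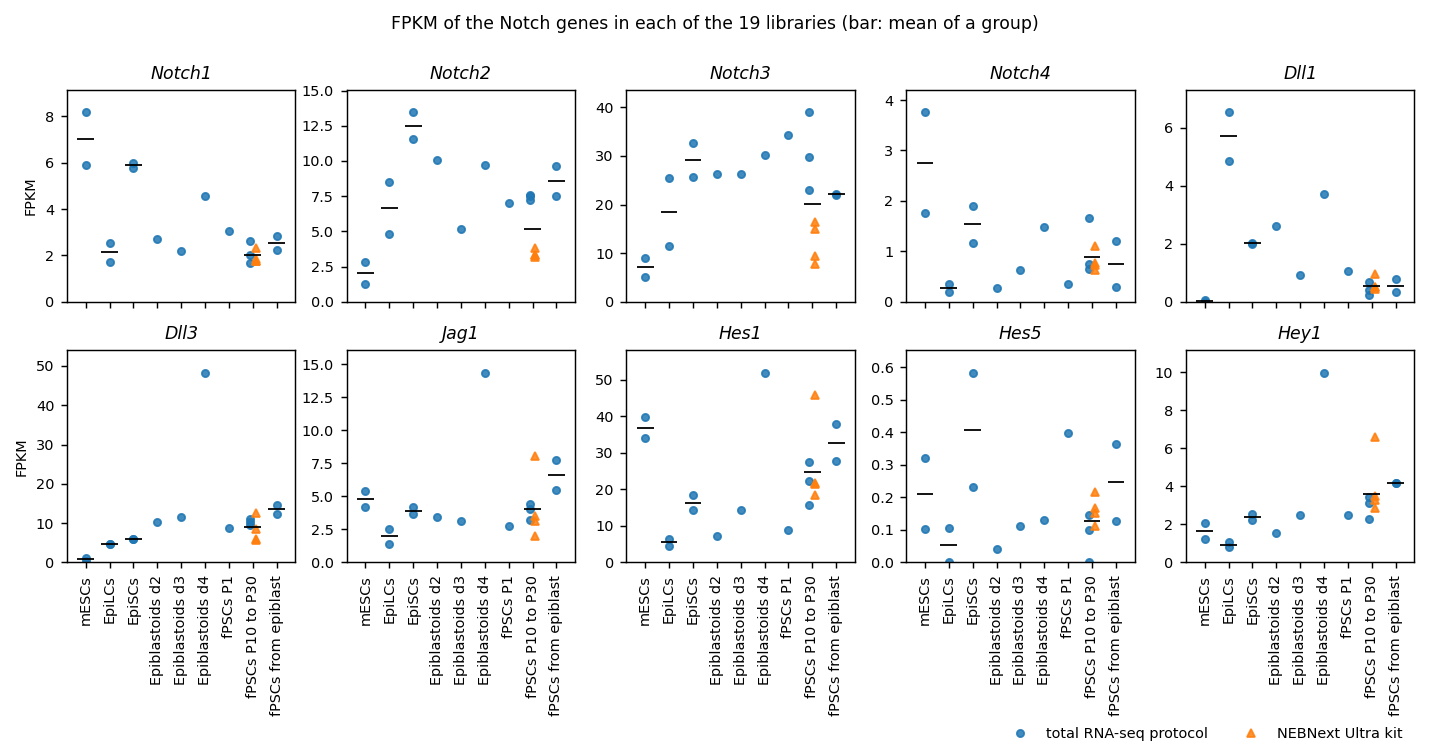
FPKM (y axis, linear, from 0, a scale per gene) of each member in the 19 libraries by group (x axis). Circles are libraries of the total RNA-seq protocol, triangles those of the NEBNext Ultra kit, and bars are means of groups with more than 1 library. Dll1 peaks in EpiLCs, Hes1 is lowest in EpiLCs, and Notch2 and Notch3 of fPSCs separate by library protocol.

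Against mESCs, fPSCs had more Dll3, Hey1 and Notch2 and less Notch1 and Notch4. Against EpiLCs they had more Hes1 and Hey1 and less Dll1, and against EpiSCs less Notch1, Notch2 and Dll1. The members called were 5 of 9 against mESCs (40.3% of all genes tested), 3 of 9 against EpiLCs (13.8%) and 3 of 9 against EpiSCs (32.3%). The median log2 difference over the 9 members was 0.57, 0.56 and -0.42, beside -0.04, 0.01 and 0.02 over all genes. The 7 libraries of P10 and later entered these fits, and each comparison shares them with the others.

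Dll3 in the 7 fPSC libraries ran from 5.66 through a median of 9.60 to 12.6 FPKM. Every fPSC library was above both mESC libraries and above the EpiLC libraries, and they overlapped the EpiSC libraries. The rise from mESCs was 2.49 ± 0.27 (limma adjusted p = 7.58e-06), while the differences from EpiLCs, 0.78 ± 0.27 (limma adjusted p = 0.0692), and from EpiSCs, 0.51 ± 0.27 (limma adjusted p = 0.154), were not called. Dll1 ran from 0.242 through 0.509 to 0.971 FPKM. All 7 libraries were above mESCs and below EpiLCs and EpiSCs. The log2 difference of Dll1 was -2.12 ± 0.16 from EpiLCs (limma adjusted p = 9.92e-07). From EpiSCs it was -0.98 ± 0.16 (limma adjusted p = 0.000443). Both calls held under all 16 alternatives. Its difference from mESCs, 0.57 ± 0.16, had a limma adjusted p of 0.011 but missed the fold of 1.5 on this scale. Jag1 ran from 2.01 through 3.51 to 8.05 FPKM, overlapped every other group and was not called in any comparison.

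Notch1 was lower in fPSCs than in mESCs and EpiSCs. It ran from 1.66 through 1.86 to 2.60 FPKM, below both mESC and both EpiSC libraries, and it overlapped EpiLCs. The log2 difference was -1.41 ± 0.18 from mESCs (limma adjusted p = 2.96e-05) and -1.20 ± 0.18 from EpiSCs (limma adjusted p = 0.000202), and both calls held under all 16 alternatives. From EpiLCs it was -0.06 ± 0.18 (limma adjusted p = 0.884). Notch4 ran from 0.628 through 0.739 to 1.66 FPKM, below mESCs, and its difference from mESCs of -0.96 ± 0.22 (limma adjusted p = 0.00378) was called, though not without mESC replicate 1.

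Notch2 ran from 3.16 through 3.82 to 7.58 FPKM in fPSCs. All 7 libraries were above mESCs and below EpiSCs. The difference from mESCs was 0.99 ± 0.35 (limma adjusted p = 0.0375), and that from EpiSCs -1.21 ± 0.35 (limma adjusted p = 0.0184), and both were called. The first call was lost under 7 of 16 alternatives, among them the kit libraries alone, and the second under 3, among them the total RNA-seq libraries alone. Notch3 ran from 7.73 through 16.5 to 39.0 FPKM and overlapped mESCs, EpiLCs and EpiSCs. None of its 3 comparisons was called, with limma adjusted p of 0.0649 against mESCs, 0.981 against EpiLCs and 0.303 against EpiSCs.

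Hes1 ran from 15.8 through 21.6 to 45.9 FPKM in fPSCs. All 7 libraries were above both EpiLC libraries, and they overlapped EpiSCs. The overlap with mESCs came from 46C P24 alone, since the other fPSC libraries lay below both mESC libraries. Hes1 was higher than in EpiLCs by 1.92 ± 0.30 (limma adjusted p = 0.000787), a call that held under all 16 alternatives. The differences from mESCs, -0.63 ± 0.30 (limma adjusted p = 0.11), and from EpiSCs, 0.51 ± 0.30 (limma adjusted p = 0.207), were not called. Hey1 ran from 2.28 through 3.26 to 6.61 FPKM, above both mESC and both EpiLC libraries. It was higher by 1.20 ± 0.25 than in EpiLCs (limma adjusted p = 0.00626; lost without EpiLC replicate 1) and by 0.76 ± 0.25 than in mESCs (limma adjusted p = 0.0281). The latter was lost without mESC replicate 2, with only these groups in the fit and with the total RNA-seq fPSCs alone. Hes5 ran from 0 through 0.147 to 0.218 FPKM.

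**Figure D2:**
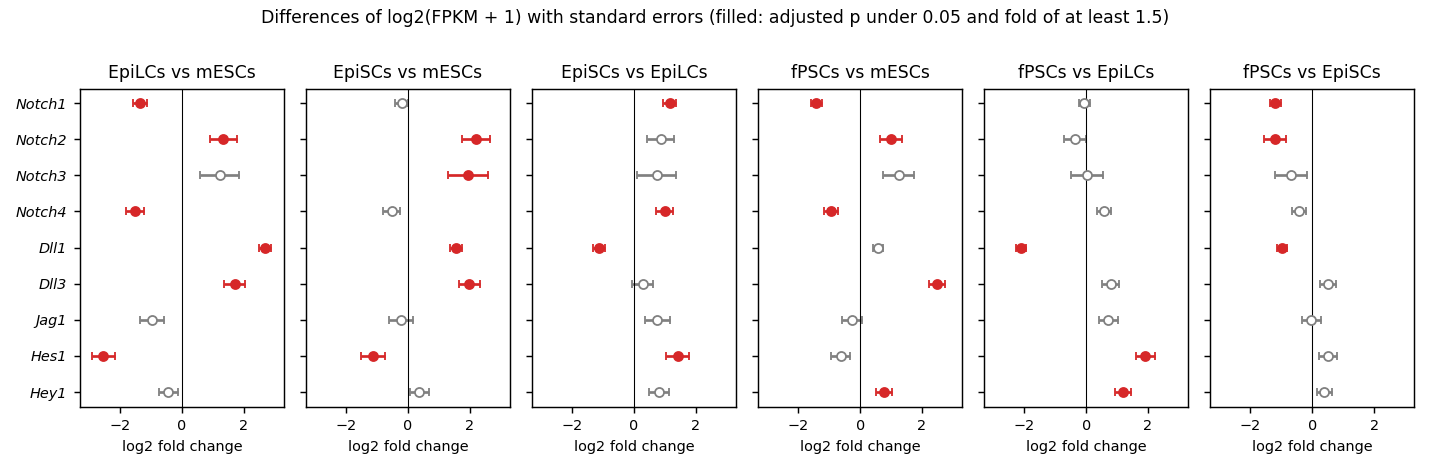
Log2 fold change of log2(FPKM + 1) (x axis) with its standard error for the 9 tested members (y axis) in the 6 comparisons of 2 mESC, 2 EpiLC, 2 EpiSC and 7 fPSC libraries. Filled points were called. Dll1 is far right in EpiLCs against mESCs (2.69) and far left in fPSCs against EpiLCs (-2.12), and Hes1 does the reverse (-2.55 and 1.92).

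Within the 7 fPSC libraries, Notch2 and Notch3 followed the library protocol. Notch2 was at 7.48, 7.58 and 7.24 FPKM in P10, P20 and P30, and at 3.82, 3.16, 3.35 and 3.31 FPKM in CMT P11, 46C P24, BVSC P14 and ROSAmTmG P12. Notch3 was at 23.0, 39.0 and 29.8 FPKM in P10, P20 and P30, and at 16.5, 15.0, 9.32 and 7.73 FPKM in the same 4 kit libraries. The protocols did not overlap for either gene. CMT P11, from the same line as P10 to P30, lay with the kit libraries for both. With kit minus total RNA-seq protocol, the log2 difference was -0.94 ± 0.20 for Notch2 (limma adjusted p = 0.0032) and -1.30 ± 0.31 for Notch3 (limma adjusted p = 0.00594). These were the 2 of 9 members called, in a comparison where 25.6% of 12562 genes were called and the median of all genes was 0.15. The protocol cannot be told apart from the deposit and, for 3 of the 4 kit libraries, from the line. For CMT P11 it cannot be told apart from cryopreservation. For Notch3 in fPSCs against EpiLCs the difference was 0.03 over all 7, 0.77 with the total RNA-seq libraries alone, which share the protocol of EpiLCs, and -0.52 with the kit libraries alone; none of the 3 was called.

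46C P24 had the highest Hes1, Jag1, Hey1, Dll1 and Dll3 of the 7. Hes1 was at 45.9 FPKM there and between 15.8 and 27.6 FPKM in the other 6, Jag1 at 8.05 against 2.01 to 4.39 FPKM, and Hey1 at 6.61 against 2.28 to 3.48 FPKM. Some marker lists also stood apart there: the 5 extraembryonic endoderm markers summed to 84.4 FPKM, with 4 of 5 at 1 FPKM or more, and to between 2.12 and 17.8 FPKM in the other 6. Of this list, Sox17, Gata6 and Gata4 are also expressed by definitive endoderm. The 5 markers of primitive streak and presomitic mesoderm summed to 110 FPKM in 46C P24 and to between 26.7 and 62.2 FPKM in the rest. In each of these libraries 3 of the 5 (T, Mixl1 and Eomes) reached 1 FPKM. The presomitic genes Tbx6 and Msgn1 were at most at 0.9045 and 0.4293 FPKM in the 7. The endothelial sum was also the highest in 46C P24, 16.5 FPKM against 0.626 to 3.24 FPKM. Flt1 gave 15.6 FPKM of it and was the only 1 of the 7 endothelial markers at 1 FPKM or more. The fibroblast sum (2.56 FPKM against 3.08 to 8.76 FPKM) and the pluripotency sum (858 FPKM against 1052 to 1457 FPKM) were the lowest there. The part of these marker lists in the Notch levels was not tested. Without 46C P24, the calls of Hes1 and Hey1 in fPSCs against EpiLCs both held. In fPSCs against mESCs, 6 members were called without it, 3 of them lower, beside 5 with 2 lower over all 7 libraries.

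fPSCs derived from E5.5 and E6.5 epiblasts were compared with P10, P20 and P30, which share their protocol. They had 37.8 and 27.7 FPKM of Hes1, 14.7 and 12.4 FPKM of Dll3, 5.44 and 7.72 FPKM of Jag1 and 4.17 and 4.15 FPKM of Hey1. For each of these 4 genes both libraries were above P10, P20 and P30. No member was called in limma against P10, P20 and P30, where 1.31% of all genes were called, and none of the 9 had an unadjusted p under 0.05. The largest differences were 0.62 ± 0.36 for Jag1 and 0.58 ± 0.33 for Hes1. Markers of extraembryonic endoderm summed to 25.0 and 25.5 FPKM in these libraries and to between 2.26 and 8.61 FPKM in P10, P20 and P30. Gata4, Gata6 and Sox17 were higher in both epiblast libraries than in P10, P20 and P30, whereas Dab2 was lower (0.141 and 0.134 FPKM against 0.167 to 0.734 FPKM). The streak and presomitic markers summed to 126 and 113 FPKM, against 55.2 to 62.2 FPKM. In each library 3 of the 5 (T, Mixl1 and Eomes) reached 1 FPKM, and Tbx6 and Msgn1 did not. The part of these markers in the Notch levels was not tested.

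In Epiblastoids the ligands Dll1, Dll3 and Jag1 and the targets Hes1 and Hey1 were higher on day 4 than on day 3. There was 1 library per day, so these differences have no replicate check. Dll3 was at 10.2, 11.4 and 48.2 FPKM on days 2, 3 and 4. Jag1 was at 3.40, 3.14 and 14.3 FPKM, and Dll1 at 2.59, 0.918 and 3.73 FPKM. All 3 of these ligands were highest on day 4, and Dll1 dipped on day 3. Hes1 was at 7.32, 14.3 and 51.8 FPKM and Hey1 at 1.57, 2.48 and 9.95 FPKM, so that both targets were higher on each later day. Hes5 was at 0.0405, 0.113 and 0.132 FPKM. Ligands and targets outside the 10 members went both ways. Jag2 was at 7.62, 13.2 and 3.13 FPKM and the repressor Hes6 at 77.0, 90.5 and 21.3 FPKM, both lowest on day 4. Dlk1 was at 0.747, 1.07 and 2.24 FPKM and Nrarp at 1.385, 4.71 and 7.36 FPKM, both highest on day 4.

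On the log2 scale the difference of day 4 from day 3 was 1.98 for Dll3, 1.89 for Jag1, 1.79 for Hes1, 1.65 for Hey1 and 1.30 for Dll1. These are 5 of 10 members at 1 or more, where 7.85% of the 11357 genes at 1 FPKM or more on either day were. Hes5 was below 1 FPKM on both days and is not among the 11357. The receptors moved less, from 0.19 for Notch3 to 0.81 for Notch1 and Notch2, and the median of all genes was -0.14. From day 2 to day 3 no member was higher by 1 or more (3.11% of 11095 genes were) and none was lower by 1 or more (2.47%). Hes5 and Notch4 were below 1 FPKM on both of these days and are not among the 11095. In that step Hes1 came closest upward, with 0.88, and Dll1 downward, with -0.91. From day 3 to day 4 no member was lower by 1 or more either (8.22% of genes were). The streak and presomitic markers summed to 7.89, 51.7 and 444 FPKM on days 2, 3 and 4. Most of the day 4 sum came from Mixl1 (253.6 FPKM) and Eomes (145.2 FPKM), followed by T. The presomitic genes of the list gave little of it: Tbx6 was at 6.736 FPKM and Msgn1 at 0.3156 FPKM. Markers of extraembryonic endoderm summed to 1.46, 0.971 and 119 FPKM on the same days. Their sum on day 4 came from Sox17 (68.7 FPKM), Gata6 (38.4 FPKM) and Gata4 (11 FPKM), which definitive endoderm also expresses. Dab2 (0.671 and 0.473 FPKM on days 3 and 4) and Sox7 (0.0466 and 0.0237 FPKM) were not higher. The 7 endothelial markers summed to 1.43 FPKM on day 3 and 49.7 FPKM on day 4, mostly from Kdr (36.05 FPKM) and Flt1 (13.45 FPKM). Pecam1 (0.289 and 0.0946 FPKM), Tek (0.704 and 0.0402 FPKM) and Tie1 (0.0313 and 0 FPKM) were lower on day 4. Cdh5 was at 0 and 0.0332 FPKM, and Emcn at 0 on both days. The 4 pluripotency markers summed to 1450 and 535 FPKM. These sums come from the same single libraries, and their part in the day 4 levels was not tested.

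In fPSCs at P1, with 1 library, Hes1 was at 8.88 FPKM, below all 7 later libraries. Dll1 at P1 was 1.07 FPKM, above all 7, and Notch4 was 0.359 FPKM, below all 7. Dll3 (8.65 FPKM), Hey1 (2.50 FPKM), Jag1 (2.76 FPKM), Notch2 (7.02 FPKM) and Notch3 (34.3 FPKM) lay within the range of the later libraries, and Notch1 (3.05 FPKM) above it.

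**Figure D3:**
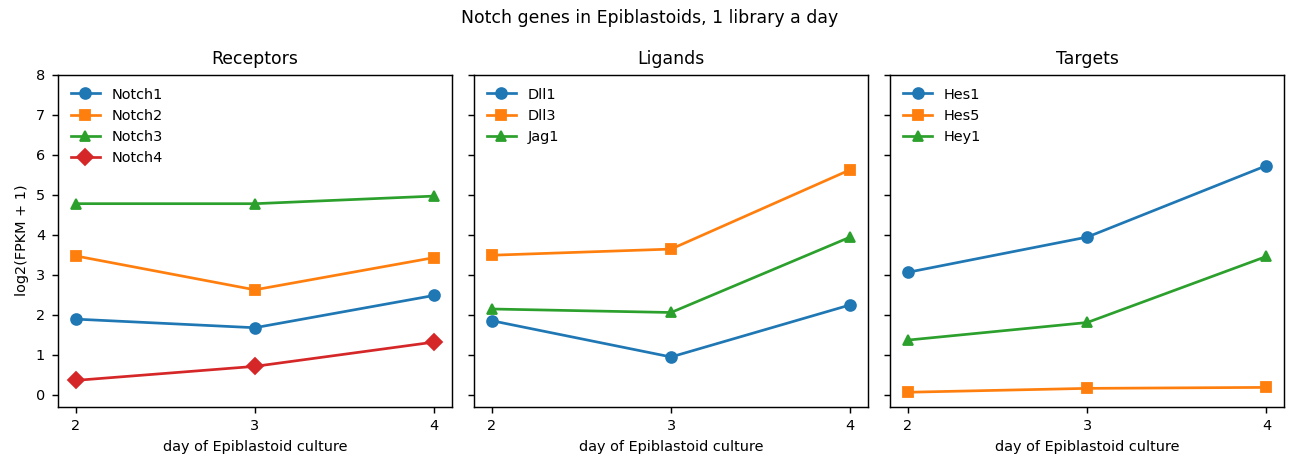
Level of each member as log2(FPKM + 1) (y axis) in Epiblastoids on days 2, 3 and 4 (x axis), 1 library a day, with receptors, ligands and targets in separate panels. Dll3, Jag1, Hes1 and Hey1 are highest on day 4, while Notch3 is nearly level and Hes5 stays near 0.

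The promoters of the members in fPSCs P10 fell into different chromatin classes. Dll1, Hes5 and Hey1 carried H3K4me3, the mark of promoters that can start transcription, together with H3K27me3, the mark set by Polycomb complexes. Hes1 carried H3K4me3 with little H3K27me3. Values are RPKM (reads scaled by bin length and by the mapped reads of the library) averaged within 5000 bp of the outermost start of a gene. Over 22085 promoters with 1 position each the mean was 1.67 RPKM of H3K4me3 and 0.892 RPKM of H3K27me3, while the medians were lower, 1.13 and 0.379 RPKM. There is 1 file per mark, so no replicate spread can be given and no test was run; steps in the values correspond to about 8040000 reads of H3K4me3 and 15500000 reads of H3K27me3.

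Both marks were above the mean at 3 of 10 members, and at 6.63% of all promoters. Dll1 had 3.25 RPKM of H3K4me3 and 3.20 RPKM of H3K27me3, from 261 and 496 reads. Hes5 had 2.98 and 2.30 RPKM, and Hey1 2.34 and 2.46 RPKM. In H3K27me3 these 3 promoters stood at percentiles 98.1, 95.4 and 96.1 of all promoters. Hey1 kept both marks above the mean at 2500 bp to each side but not at 1000 bp, where its H3K27me3 was 0.998 RPKM. Hes1 had 4.81 RPKM of H3K4me3 from 387 reads, percentile 99.1, and 0.29 RPKM of H3K27me3 from 45 reads, percentile 40.6. The other ligands and receptors had between 0.285 and 2.15 RPKM of H3K4me3 and between 0.412 and 0.817 RPKM of H3K27me3. RNA of the 3 genes with both marks differed, since Hey1 was at 3.44 FPKM in the fPSC P10 library, Dll1 at 0.396 FPKM and Hes5 at 0.

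The marks lay around the start in different ways. At Hes1, H3K4me3 was highest 750 bp past the start (14.2 RPKM in a step of 500 bp), where H3K27me3 was 0. At Hes5, H3K27me3 was 5.67 RPKM at 1750 bp before and 5.54 RPKM at 1750 bp past the start, and 1.03 RPKM at 250 bp before it. At Hey1 it was 5.67 RPKM at 2250 bp before and 5.16 RPKM at 1750 bp past the start, with 0.128 RPKM at 250 bp before it. At Dll1, H3K27me3 was 5.67 RPKM at 1250 bp before and 5.16 RPKM at 2250 bp past the start, and 1.03 RPKM at 250 bp before it. Flanking H3K27me3 with a dip at the start was thus seen at Hes5, Hey1 and Dll1. At Dll3, H3K4me3 peaked at 750 bp past the outermost start, with 15.7 RPKM, and that gene has another annotated start 453 bp further in.

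**Figure D4:**
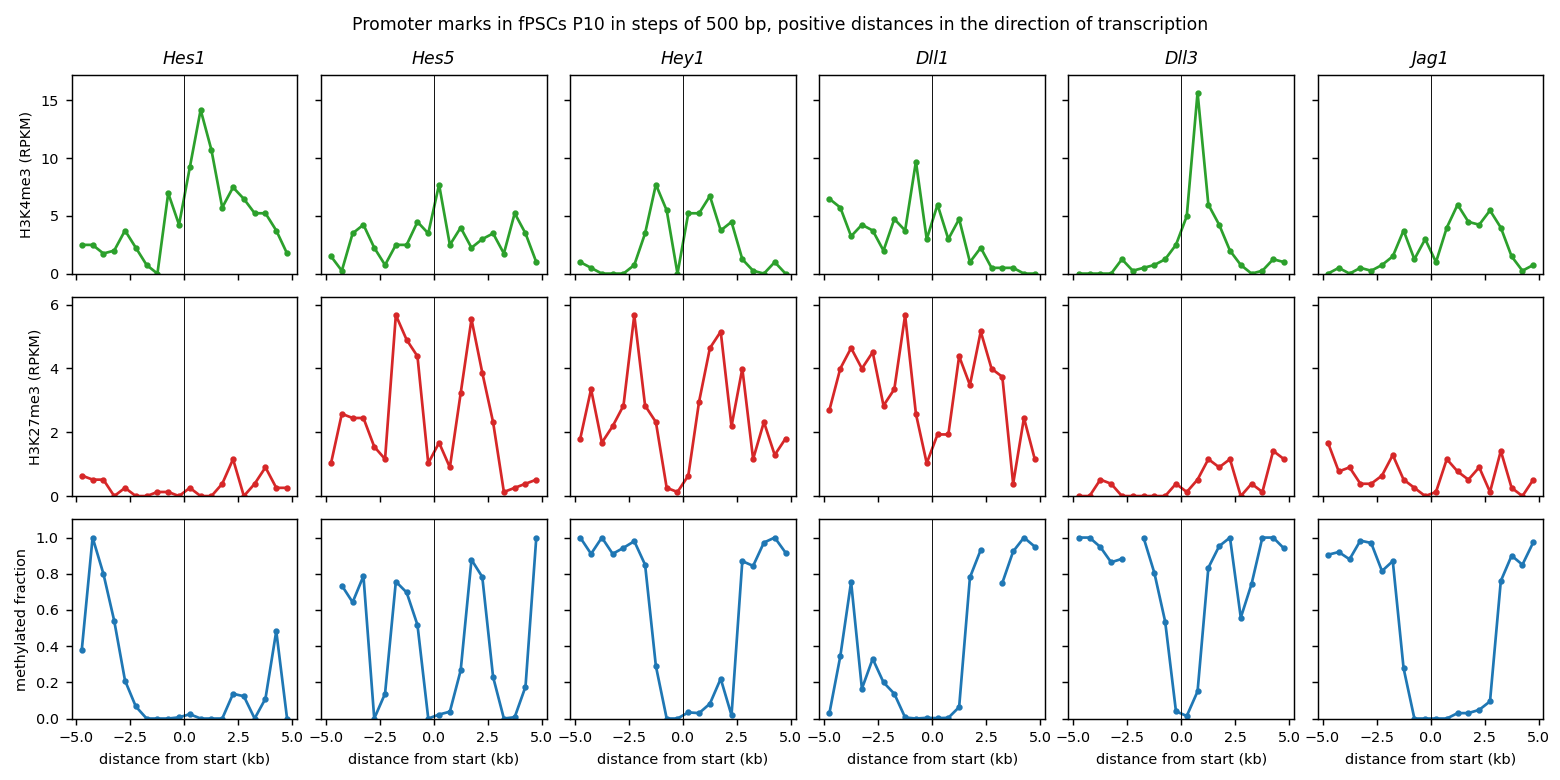
H3K4me3 and H3K27me3 (RPKM) and methylated fraction (y axes) in fPSCs P10 against the distance from the outermost start in kb (x axis) for 6 members, in steps of 500 bp. Within 5000 bp, Hes1, Dll3 and Jag1 have H3K4me3 above and H3K27me3 below the mean of all promoters, whereas Hes5, Hey1 and Dll1 have both above it. Methylation drops at each start.

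DNA methylation was low at the promoters of the targets and of 2 ligands. The mean methylated fraction of windows within 1000 bp of the start was 0 at Jag1 (18 windows), 0.0025 at Dll1 (20 windows), 0.00824 at Hes1 (17 windows), 0.0171 at Hey1 (17 windows) and 0.139 at Hes5 (17 windows). These are 5 of 10 members at 0.2 or less, where 32.9% of 21801 promoters were; the mean of all windows of the genome was 0.871. Dll3 was at 0.22, Notch2 at 0.303, Notch3 at 0.37 and Notch4 at 0.569. With 500 bp to each side 8 of 10 were at 0.2 or less (52.1% of all promoters), and with 2500 bp 3 of 10 (3.89%), so that the count depends on the width. Coverage is not given for these windows, so their precision is unknown.

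At Notch1 the alternative starts differed. The outermost start had a methylated fraction of 0.863 (8 windows) and 0.285 RPKM of H3K4me3. The inner start, 12841 bp further in, had a fraction of 0.0675 (20 windows) and 3.10 RPKM of H3K4me3, and within 1000 bp 6.09 RPKM against 0.372 RPKM at the outermost start. Taking for each gene the start with the most H3K4me3, an alternative added after the data were seen, 7 of 10 members were at 0.2 or less (35.3% of all promoters), with Notch1 and Dll3 added.

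In single fPSCs, Hes1 was found in most cells and the other members in fewer. The tables hold counts of Smart-seq2 libraries from cells of 4 clones, and 46, 45, 46 and 44 cells with at least 500 genes were used. Hes1 had a count in 76.1%, 82.2%, 60.9% and 65.9% of the cells of clones 1 to 4. Notch3 followed with 37.0%, 55.6%, 28.3% and 45.5%, and Notch2 with 17.4%, 46.7%, 30.4% and 27.3%. The order Hes1, then Notch3 and Notch2, held in 3 of 4 clones, with Notch2 ahead of Notch3 in clone 3. The exact 95% intervals are wide at this number of cells: for Hes1 in clone 3 from 45.4% to 74.9%, and for Notch3 in the same clone from 16.0% to 43.5%. Intervals cover counting error only.

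Notch1 had a count in 6.52% to 15.6% of cells of a clone, Jag1 in 6.82% to 17.8% and Dll3 in 2.27% to 8.89%. Hey1 was listed for clones 3 and 4, with a count in 3 cells of each, and Notch4 was listed for clones 1 and 2, with a count in 0 of 46 cells of clone 1 (exact upper limit 7.71%) and in 1 cell of clone 2. Dll1 and Hes5 were not listed in either table. Median counts per cell differed between clones, from 19078 in clone 1 to 33883 in clone 3, and clone 2 had the most genes per cell (4288 at the median, against 3348 to 3440). Shares were not thinned to 1 depth, so differences between clones were not read as differences in expression. In CPM (counts of a gene scaled to the total of its clone), Hes1 was at 181, 236, 335 and 258 in clones 1 to 4 and Dll3 at 4.66, 4.32, 9.12 and 2.45, beside 11, 9.60 and 10.3 FPKM of Dll3 in bulk fPSCs P10, P20 and P30. CPM are not scaled by length, so the 2 scales cannot be compared, and no cell type other than fPSCs was available as a measure of background.

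**Figure D5:**
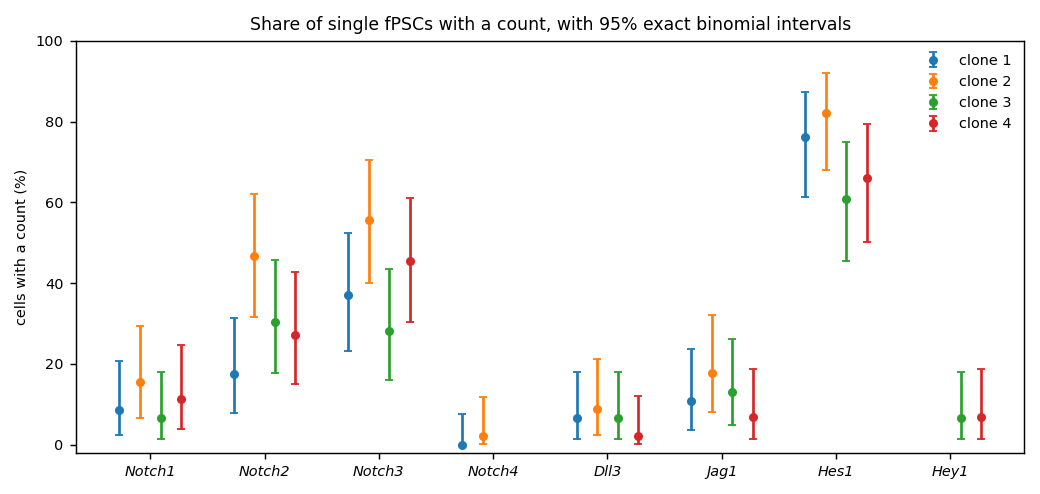
Share of cells with a count in percent (y axis) for the 8 members listed in a single-cell table (x axis), by clone (colour), with exact 95% binomial intervals. Hes1 stands between 60.9% and 82.2%, Notch3 between 28.3% and 55.6%, and Dll3, Hey1 and Notch4 lie below 10%.

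The other genes of the pathway were described from a list of 53 fixed by role (further ligands, fringe glycosyltransferases, proteases, ubiquitin ligases, nuclear complex, co-repressors, regulators of the receptor and further targets), of which 45 passed the filter. In EpiLCs against mESCs 6 rose and 4 fell, where 29.6% of all genes were called. Dtx4, a Deltex E3 ligase, rose by 2.65 ± 0.32 and the repressor Hes6 by 2.37 ± 0.35, while the ligand-like Dner fell by 1.48 ± 0.16 and the ubiquitin ligase Mib2 by 1.21 ± 0.24. In EpiSCs 17 rose and 6 fell against mESCs (47.8% of all genes called), and 18 rose and 5 fell against EpiLCs (35.9%). Medians over the list were 0.58 and 0.33, beside -0.09 and -0.03 over all genes. Against mESCs the largest rises were Dtx4 (3.96 ± 0.32) and Furin, the protease of the first receptor cleavage (3.54 ± 0.56), and the largest falls were the acetyltransferase Kat2b (-2.79 ± 0.51) and the Deltex gene Dtx1 (-2.02 ± 0.61). Against EpiLCs they were Furin (4.20 ± 0.56) and the co-activator Maml3 (2.30 ± 0.25), and Kat2b (-1.80 ± 0.51) and Dtx1 (-1.78 ± 0.61).

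In fPSCs 9 of the 45 rose and 9 fell against mESCs (40.3% of all genes called), with Dtx4 (1.98 ± 0.25) and Dlk1 (1.68 ± 0.37) up and Neurl1a, a ligase of the ligands (-2.96 ± 0.20), and Dtx1 (-2.2 ± 0.49) down. Against EpiLCs 3 rose and 4 fell (13.8%). Maml3 (1.19 ± 0.20) and Pofut1, which puts O-fucose on receptors (1.08 ± 0.20), were up, and Dtx1 (-1.96 ± 0.49) and Neurl1a (-1.81 ± 0.20) down. Against EpiSCs 2 rose and 16 fell (32.3%), with a list median of -0.29 beside 0.02 over all genes. Furin (-3.01 ± 0.45) and Rbpj (-2.45 ± 0.80) fell most, and the co-repressor Cir1 (0.79 ± 0.29) and the ligand ubiquitin ligase Mib1 (0.59 ± 0.22) rose. The fibroblast markers of the EpiSC libraries move with this comparison, and their part was not tested. Between fPSCs of the kit and of the total RNA-seq protocol 6 rose and 8 fell (25.6%), the largest being the ubiquitin ligase Itch (1.06 ± 0.13), Cir1 (0.79 ± 0.14), Furin (-1.12 ± 0.27) and Dlk1 (-1.08 ± 0.30). None of the 45 was called in fPSCs from epiblasts. At promoters, 8 of the 53 had both marks above the mean (Dlk1, Dll4, Hes3, Hes7, Hey2, Lfng, Nrarp and Tle2), where 6.63% of all promoters did. The further ligand Dll4 had 4.19 and 4.32 RPKM and the targets Hes7 and Hey2 5.42 and 2.14 RPKM and 2.41 and 1.88 RPKM of H3K4me3 and H3K27me3.

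The members with the largest range of log2(FPKM + 1) over the 19 libraries were Dll3 (5.08), Hes1 (3.24) and Dll1 (2.91), and the smallest range was that of Hes5 (0.66). Among 9975 genes reaching 5 FPKM in at least 1 library, the patterns most like Dll3 were those of Inadl, Enho and Tmem28, with Pearson's r of 0.912, 0.898 and 0.897. For Hes1 they were Acvr1b, Gsc and Ndrg1 (0.907, 0.901 and 0.888), and for Dll1 Dusp9, Actn3 and Prss50 (0.878, 0.874 and 0.856). Gsc, a gene of the anterior primitive streak, was at 96.1 FPKM in Epiblastoids on day 4 and at 56.5 FPKM in 46C P24, the libraries with the most Hes1. In mESCs, where Hes1 was at 34.0 and 39.8 FPKM, Gsc was at 12.8 and 12.7 FPKM. These r describe 19 libraries that share groups and protocols, and were picked as the highest of many.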

How the data were processed

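Bulk RNA-seq of 19 libraries was deposited by the authors as FPKM, made with cutadapt 1.11, TopHat2 2.1.1 on Ensembl mouse cDNA of mm9 and Cufflinks 2.1.1, per the methods and the submitters' processing notes. Of 23608 entries, 4 with a duplicated name were left out. FPKM carry no counts, so the DESeq2 test of the study could not be used. Log2(FPKM + 1) was fitted with limma 3.58.1 in R 4.3.3 (trend option, not robust) on genes for which 2 or more libraries reached 1 FPKM, with 1 fit over mESCs, EpiLCs, EpiSCs and 7 fPSC libraries, and a second with fPSCs split by library protocol. The step was tested on simulated data with known changes. ChIP-seq RPKM in bins of 100 bp were deposited by the authors after Bowtie2 2.2.2 alignment to mm9 and removal of duplicates and multiply mapped reads, and methylation as the methylated fraction of windows of 100 bp (BS-Seeker2). The study integrated ChIP-seq replicates, but whether these files are pooled is not stated. Single-cell counts per gene were deposited by the authors after Drop-seq_tools; whether they are reads or molecules is not stated. Promoters were placed with the NCBIM37 annotation. The named genes are all 10 members, in each comparison the 2 called pathway genes that rose most and the 2 that fell most, and for the 3 members of largest range the 3 genes most like each. Members and lists were chosen with earlier results of these data known. The replicate numbers did not pair the samples. Alternatives were a pseudocount of 0.1, no filter, upper-quartile scaling, no trend, only the groups compared, 1 fPSC protocol, a replicate block, each library left out, and other promoter widths and thresholds.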

Additional observations from a re-analysis of the deposited data

Results flagged for a closer look

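In the 7 fPSC libraries of P10 and later, 46C P24 stood apart from the others for 3 members, by the gap to the nearest library divided by the range of the group. Hes1 was at 45.9 FPKM there, Jag1 at 8.05 FPKM and Hey1 at 6.61 FPKM, with gaps of 0.607, 0.606 and 0.723 of the range, above Dixon's 95% critical value for 7 samples. Chance flags about 1 in 20 groups, and 10 members were examined in the same libraries, so the 3 are not independent. The summed markers of extraembryonic endoderm, some of which definitive endoderm also expresses, were also highest in this library, and their part was not tested.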

How the results depend on the processing

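The counts of members called moved as follows. EpiSCs against mESCs gave 5, and 3 to 4 when 1 library was left out. EpiSCs against EpiLCs gave 4, and 2 to 4 with 1 library left out, but 7 with only those groups in the fit. fPSCs against mESCs gave 5, from 3 to 6 with 1 library left out, and 3 with only the groups compared. fPSCs against EpiLCs gave 3, and 5 with the total RNA-seq fPSCs alone. Promoter methylation of 0.2 or less held for 5 members, and for 8 and 3 with 500 and 2500 bp to each side. The other counts stayed within 1.5 times, or at 0 for fPSCs from epiblasts. In fPSCs against EpiSCs the count was 3 with all fPSCs and with the total RNA-seq fPSCs alone, but the members changed. With all fPSCs 0 were higher and 3 lower, and with the total RNA-seq fPSCs alone 1 was higher and 2 were lower. Replicate numbers did not pair the samples (r of the deviations 0.208 for mESCs and EpiLCs, -0.203 for mESCs and EpiSCs and -0.138 for EpiLCs and EpiSCs); with the replicate number as a block, 8, 5 and 7 members were called in EpiLCs against mESCs, EpiSCs against mESCs and EpiSCs against EpiLCs.

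No called member changed sign. Upper-quartile scaling moved the median of all genes in EpiLCs against mESCs from -0.06 to 0.04. Of uncalled differences, Jag1 in fPSCs against EpiSCs became 0.02 with upper-quartile scaling; with total RNA-seq fPSCs alone, Notch2 against EpiLCs became 0.18 and Notch3 against EpiSCs 0.05; with kit libraries alone, Notch3 against EpiLCs became -0.52. With 1 library left out, ranges across 0 were -0.18 to 0.08 (Jag1, fPSCs against EpiSCs), -0.25 to 0.13 (Notch1, fPSCs against EpiLCs), -0.51 to 0.58 (Notch3, fPSCs against EpiLCs), and between fPSC protocols -0.35 to 0.18 (Jag1), -0.26 to 0.09 (Notch4), -0.18 to 0.04 (Notch1) and -0.06 to 0.41 (Hes1). In fPSCs from epiblasts they were -0.6 to 0.17 (Notch4) and -0.09 to 0.31 (Dll1). The cause of these shifts was not tested.

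Counts over all genes depended on single libraries: fPSCs against EpiSCs gave 4041, but 1523 without EpiSC replicate 2 and 2455 without replicate 1. fPSCs against EpiLCs gave 1728, but 865 and 890 without EpiLC replicate 1 or 2, and 3178 or 2648 with total RNA-seq or kit fPSCs alone. EpiLCs against mESCs gave 3706, but 2416 and 2291 without mESC replicate 1 or 2. EpiSCs against EpiLCs gave 4488, but 2871 without EpiLC replicate 2 and 2425 without EpiSC replicate 2. fPSCs from epiblasts gave 164, from 57 to 169 with 1 library left out, and 95 without the filter on low values. Where 1 library was left in a group, it was assumed to vary like the other groups. Groups of 2 libraries, unknown depth and coverage, and single files per mark limit the precision.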

Other observations

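Rbpj, the DNA-binding partner of the cleaved receptor, was not level among fPSCs. It was at 1.65, 3.74 and 1.19 FPKM in P10, P20 and P30 and at 1.02 FPKM in CMT P11, and at 11.9, 12.2 and 13.2 FPKM in 46C P24, BVSC P14 and ROSAmTmG P12. CMT P11 was made with the same kit as these, but its Rbpj lay with P1, P10, P20 and P30, which are of the same line. It was at 1.90 FPKM at P1, at 8.98 and 2.21 FPKM in fPSCs from E5.5 and E6.5 epiblasts, at 27.8 and 29.2 FPKM in EpiSCs, and differed between replicates of mESCs (8.63 and 3.92 FPKM) and EpiLCs (8.70 and 1.97 FPKM). These groups were noticed after the values were seen, and no test was made.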
